A study of Mus musculus with 8 samples.

Results

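The genes described here encode the enzymes, regulators and carriers of sphingolipid and ceramide metabolism. They are 35 genes taken by symbol from an earlier list, and 34 of them are among the 12367 genes of the expression table. The sphingosine kinase Sphk1 was not analysed here. They fall into 16 genes that make ceramide and build it into sphingomyelin or ceramide phosphate (synthesis), 11 measured genes classed as breakdown and 7 genes of glycosphingolipids. The breakdown class holds sphingomyelinases and their relatives, ceramidases, a sphingosine kinase, a phosphatase and the lyase of sphingosine phosphate, and a lysosomal carrier. Not all of these break sphingolipids down themselves. Alveolar macrophages, the macrophages of the lung air spaces, were sorted as CD45+ F4/80+ CD11c+ cells from untreated mice that were 3 weeks old. All mice carried Tfam-fl/fl, the conditional allele of the mitochondrial transcription factor gene Tfam. The WT group, 4 libraries, carried that allele alone, and the KO group, 4 libraries, also carried CD11c-Cre, a recombinase expressed in CD11c-positive cells. Each library was a pool of 3 to 5 mice, male and/or female. No group had the Cre without the floxed allele, so Cre and Tfam loss cannot be told apart.

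Sphingolipids are membrane lipids built on a long-chain base that the cell makes from serine and palmitoyl-CoA in the endoplasmic reticulum. Acylation of the base and desaturation give ceramide, which is turned into sphingomyelin, glucosylceramide or ceramide phosphate, mostly in the Golgi. Ceramidases release sphingosine, sphingosine kinases phosphorylate it, and a lyase cleaves sphingosine phosphate in the only exit from the pathway. Alveolar macrophages take up and degrade surfactant, a lipid film that contains sphingomyelin beside its main phospholipids.

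The deposited values are on a normalised per-million-reads scale and are quoted below in the order of replicates 1 to 4, or as mean ± SD (n = 4). A gene was called higher or lower at a limma Benjamini-Hochberg adjusted p under 0.05 over all 12163 tested genes, with fold changes on the log2(value + 1) scale, which understates changes of low genes. Depth, inferred from the spacing of the values, was 20243772 to 30263201 reads in the listed genes, which puts 3 reads at 0.1 to 0.152 on this scale (a limit for counting error alone). Tfam was 26.1, 35.2, 30.3 and 29.7 in WT and 4.52, 5.08, 4.29 and 3.52 in KO, so each library matched its genotype label. Of 9 alveolar macrophage markers all were present; 2 were higher (Itgax and Car4) and 2 were lower. The lower ones were Siglecf, from 501 ± 37.6 in WT to 194 ± 20.9 in KO (log2 fold change -1.36), and Ear1, from 845 ± 112 to 123 ± 39.3 (log2 fold change -2.81). The summed level of the 9, most of it Chil3 (23528 ± 1334 in WT and 27808 ± 2465 in KO), was 30090.3 to 32301 in WT and 32671 to 38098 in KO. Markers of interstitial or monocyte-derived macrophages were low but higher in KO: 6 of 7 measured were called higher and 0 lower, and their summed level was 62, 38.8, 64.9 and 40.8 in WT and 212, 74.3, 116 and 128 in KO. Of 6 neutrophil markers 1 was higher and 2 were lower, of 6 dendritic cell markers 1 was higher, and of 6 alveolar epithelial markers 1 was lower. Replicate 4 of both genotypes stood apart from the other libraries on the second principal component. The part of other cells in the results for the sphingolipid genes was not tested.

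Sphingolipid genes moved in both directions, and the class medians stayed near 0. Of the 34 measured members 9 were called higher and 8 lower in KO, and 17 were not called. The called share was 50%, against a background of 38.7% of all tested genes; higher calls were 26.5% against 18.7%, and lower calls 23.5% against 20.0%. The KO and WT values did not overlap for 16 members, 47.1%, against 37.7% of all tested genes. The median log2 fold change was 0.066, with a range of -0.64 to 1.26, beside -0.0063 over all tested genes. With the replicate number as a block, 14 members were called higher and 8 lower (41.2% and 23.5%), but calls over all tested genes also rose, to 46.7%, with 22.4% higher and 24.3% lower. Lower calls numbered 4 without WT replicate 2 and 5 without KO replicate 2 or KO replicate 3. In the same order, lower calls over all tested genes were 1947, 2097 and 1972, against 2429 with all libraries.

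**Figure D1:**
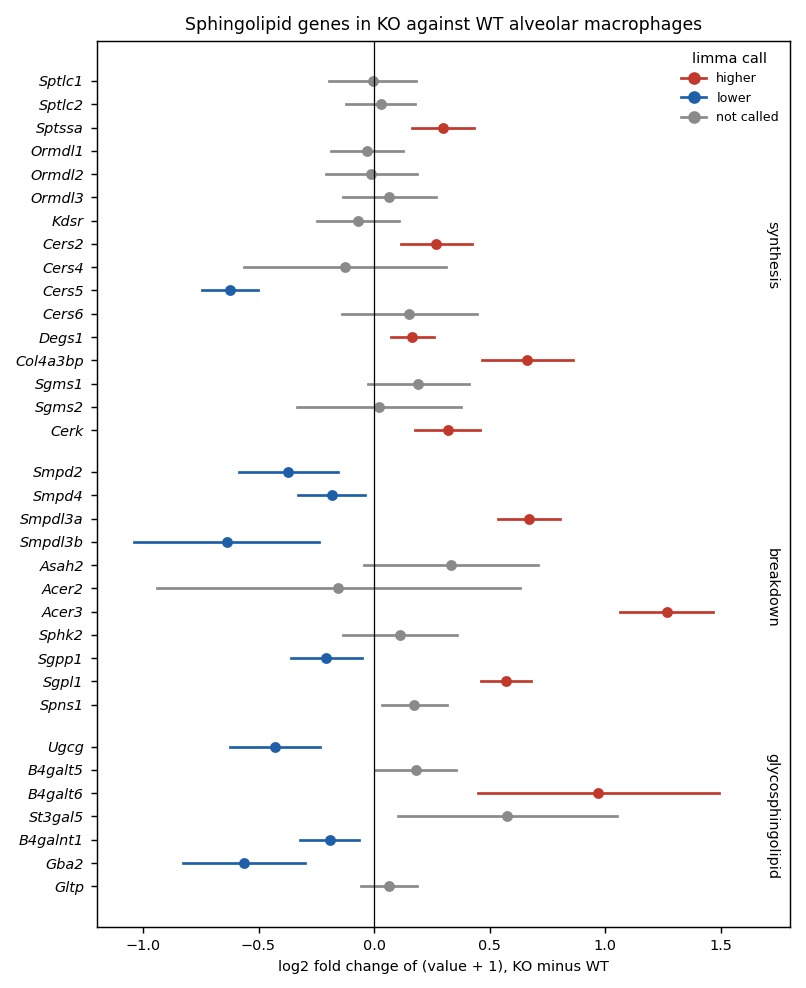
Log2 fold change of each of the 34 members (KO minus WT, on the log2(value + 1) scale), grouped by class, with points as estimates and lines as 95% confidence intervals. Acer3 lies farthest to the right at 1.26, and Smpdl3b and Cers5 lie farthest to the left at -0.64 and -0.62, while Sptlc1, Sptlc2 and the 3 Ormdl genes lie at 0 within their intervals.

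RefSeq promoter windows of equal length around listed starts (GRCm38.p6) were matched for 30 of the 34 members. Those of the members that were called with a log2 fold change of at least 0.5 in either direction and had a window are shown, to set the genes that rose beside those that fell. Capitals mark matches, on either strand, to CACGTG (the E-box core of the CLEAR element) or GGGCGG (the GC box). Acer3 has a pair of listed starts, and Acer3 and Sgpl1 were higher in KO, while Cers5, Gba2 and Smpdl3b were lower.
Acer3 (chr7:98321159-98321458, minus strand): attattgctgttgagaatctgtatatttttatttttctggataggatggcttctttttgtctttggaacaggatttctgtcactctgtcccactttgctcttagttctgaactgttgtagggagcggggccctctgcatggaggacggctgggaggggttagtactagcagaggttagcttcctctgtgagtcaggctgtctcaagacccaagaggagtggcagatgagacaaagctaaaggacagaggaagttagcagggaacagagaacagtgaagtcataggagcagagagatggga
Acer3 (chr7:98309493-98309792, minus strand): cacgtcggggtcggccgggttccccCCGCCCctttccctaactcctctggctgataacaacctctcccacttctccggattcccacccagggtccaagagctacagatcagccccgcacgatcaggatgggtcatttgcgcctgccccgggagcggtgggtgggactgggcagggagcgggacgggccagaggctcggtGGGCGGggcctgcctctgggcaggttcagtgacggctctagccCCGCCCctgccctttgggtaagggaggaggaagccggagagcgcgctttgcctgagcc
Sgpl1 (chr10:61147635-61147934, minus strand): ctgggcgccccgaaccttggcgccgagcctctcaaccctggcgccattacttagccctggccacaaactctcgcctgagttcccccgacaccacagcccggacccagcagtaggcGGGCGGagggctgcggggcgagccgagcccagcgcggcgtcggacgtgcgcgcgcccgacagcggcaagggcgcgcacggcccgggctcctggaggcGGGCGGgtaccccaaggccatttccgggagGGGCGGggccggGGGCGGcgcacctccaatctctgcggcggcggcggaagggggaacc
Cers5 (chr15:99772466-99772765, minus strand): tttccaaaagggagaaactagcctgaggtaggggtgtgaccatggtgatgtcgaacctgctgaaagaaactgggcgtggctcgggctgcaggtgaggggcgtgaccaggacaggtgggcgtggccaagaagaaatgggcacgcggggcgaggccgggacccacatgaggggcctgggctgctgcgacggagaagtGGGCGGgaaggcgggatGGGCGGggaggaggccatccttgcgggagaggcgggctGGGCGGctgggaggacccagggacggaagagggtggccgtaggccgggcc
Gba2 (chr4:43578815-43579114, minus strand): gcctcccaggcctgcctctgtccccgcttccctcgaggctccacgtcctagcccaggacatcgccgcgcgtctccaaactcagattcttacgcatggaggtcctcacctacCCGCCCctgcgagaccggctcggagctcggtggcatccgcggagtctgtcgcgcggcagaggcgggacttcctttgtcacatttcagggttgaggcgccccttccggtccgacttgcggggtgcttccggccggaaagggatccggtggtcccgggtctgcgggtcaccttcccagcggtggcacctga
Smpdl3b (chr4:132757122-132757421, minus strand): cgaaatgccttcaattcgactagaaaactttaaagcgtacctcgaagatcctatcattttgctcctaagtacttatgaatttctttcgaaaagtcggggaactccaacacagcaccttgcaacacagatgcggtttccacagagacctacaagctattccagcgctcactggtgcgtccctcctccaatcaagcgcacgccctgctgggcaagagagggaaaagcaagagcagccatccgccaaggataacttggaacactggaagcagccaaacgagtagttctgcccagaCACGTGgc

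The GC box was found in 5 of 6 members called higher, 4 of 7 called lower and 14 of 17 not called, and in 38.2% of the 27025 genes with a window. For every motif, this background was not limited to genes of the expression table, from which the members come. The shares are thus not like for like. Acer3 is among the 5 only through its window inside the gene, whose start was not matched to a GENCODE transcript; its window at the GENCODE gene start held no match. CACGTG was found in 2 of 6 (Cers2 and Degs1), 2 of 7 (Smpd2 and Smpdl3b) and 2 of 17 (Cers6 and Sgms2), against 8.09% of all genes. The ATF4 element, searched as TGATGNAA, was found in Sgms2 alone of the 30 members, against 4.51% of all genes. The SREBP element, searched as TCACNCCAC, was in 0 of 30 against 1.44%, and the LXR element, AGGTCA repeated after 4 bases, in 0 of 30 against 0.0148%. CACGTG can share end bases with other motifs, and each motif was counted by itself; no window shown holds both marked motifs. A match describes these letters only, and members that rose and that fell both held the GC box and CACGTG.

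In the synthesis class 5 of 16 genes were higher, 1 was lower and 10 were not called, and the median log2 fold change was 0.048. The called share, 37.5%, was near the 38.7% of all tested genes. Higher calls were 31.25% against 18.7%, and lower calls 6.25% against 20.0%. The first step is carried out by serine palmitoyltransferase, whose catalytic core is the pair Sptlc1 and Sptlc2. Sptlc1 was 65.2, 62.3, 64.5 and 55.7 in WT and 62.3, 61, 70 and 54 in KO, and Sptlc2 was 309, 282, 278 and 256 in WT and 289.6, 300.3, 293 and 264 in KO. The WT and KO values overlapped for both subunits, with 95% intervals of the log2 fold change of -0.19 to 0.18 and -0.12 to 0.18. The small activating subunit Sptssa was the exception in this enzyme. It was 74, 80.9, 79 and 69.3 in WT and 97.7, 90.4, 91.1 and 94 in KO, with every KO library above every WT library (log2 fold change 0.30, SE 0.0604, limma adjusted p = 0.00356). In bulk samples, a change in the cells that express a gene and a change in RNA per cell cannot be told apart.

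The Ormdl proteins hold serine palmitoyltransferase back when ceramide is plentiful. None of the 3 genes was called: Ormdl1 was 42.6 ± 2.75 in WT and 41.7 ± 2.79 in KO, and Ormdl3 was 21 ± 2.1 and 22 ± 1.88. Ormdl1 shares 8.72% of its exon bases with the protein-coding gene Gm28778 on the same strand. Ormdl2 was 40.7 ± 3.41 in WT and 40.4 ± 4.37 in KO, but 66.7% of its exon bases lie opposite exons of Dnajc14, and whether reads were counted by strand is not given in the sources used here. Kdsr, the reductase of the second step, was 22.5 ± 1.65 in WT and 21.4 ± 1.64 in KO (log2 fold change -0.071, 95% interval -0.25 to 0.11). None of these 6 genes (the core pair, the 3 inhibitors and the reductase) had an unadjusted limma p under 0.05, and none was called under the replicate block or with voom weights.

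Ceramide synthases attach the acyl chain, and each prefers certain chain lengths. Cers5, which favours palmitoyl chains, was the 1 synthesis gene that fell. It was 78.9, 81.2, 83.7 and 81.3 in WT and 49.4, 50.6, 54.8 and 54.8 in KO, with no overlap and little spread in either group. KO stood at 0.645 times WT (log2 fold change -0.62, SE 0.0541, limma adjusted p = 2.59e-05), at chr15:99734881-99772885 on GRCm38. Cers2, which makes very long chain ceramides, was 135, 145, 147 and 147 in WT and 174, 185, 183 and 153 in KO. All KO libraries were above all WT libraries, replicate 4 by the narrowest gap (log2 fold change 0.27, adjusted p = 0.0112). Cers6, which like Cers5 favours palmitoyl chains, was 104 ± 20.1 in WT and 115 ± 13.8 in KO and was not called (adjusted p = 0.396). WT replicate 4 was its highest library at 134, and without that library Cers6 was called higher (adjusted p = 0.0423). Cers4 was close to the lower limit of the table, with 22 to 66 reads per library and 1.62 ± 0.671 in WT against 1.36 ± 0.304 in KO.

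Per kilobase of merged exons in the GENCODE annotation of GRCm38, the WT level was 39.1 ± 1.61 for Cers2, 22.9 ± 0.553 for Cers5, 11.7 ± 2.27 for Cers6 and 0.132 ± 0.0547 for Cers4. The order Cers2, Cers5, Cers6, Cers4 in WT was thus wider than the spread between libraries. In KO the corresponding levels of Cers5 and Cers6 were 14.8 ± 0.796 and 13 ± 1.55, a gap about as wide as the SDs. The desaturase Degs1, which puts the double bond into dihydroceramide, rose by a small and even amount. It was 159, 163, 165 and 167 in WT and 180.4, 183, 189 and 181 in KO, with no overlap (log2 fold change 0.17, SE 0.0422, limma adjusted p = 0.0118).

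Past ceramide, the largest rise in this class was that of Col4a3bp, at chr13:96542618-96640167. It encodes the ceramide transfer protein CERT, which carries ceramide from the endoplasmic reticulum to the Golgi for sphingomyelin synthesis. Col4a3bp was 131, 133, 145 and 123 in WT and 184, 245, 206 and 211 in KO. The groups did not overlap, and the KO mean was 1.59 times the WT mean (log2 fold change 0.66, SE 0.087, limma adjusted p = 0.000273). Sgms1, the Golgi sphingomyelin synthase, was 54.5, 45.4, 49.2 and 45.6 in WT and 58.7, 50, 65.2 and 49.8 in KO, with overlapping groups and no call (adjusted p = 0.154). In each of the 4 same-numbered pairs its KO value was the higher one, and the fit with the replicate block called it higher (adjusted p = 0.0391). Sgms2, the synthase also found at the plasma membrane, was 40.3 ± 7.49 in WT and 40.9 ± 7.34 in KO (95% interval -0.33 to 0.38). Cerk, which phosphorylates ceramide, was 107 ± 6.99 in WT and 133 ± 6.66 in KO, without overlap (log2 fold change 0.32, adjusted p = 0.00288).

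**Figure D2:**
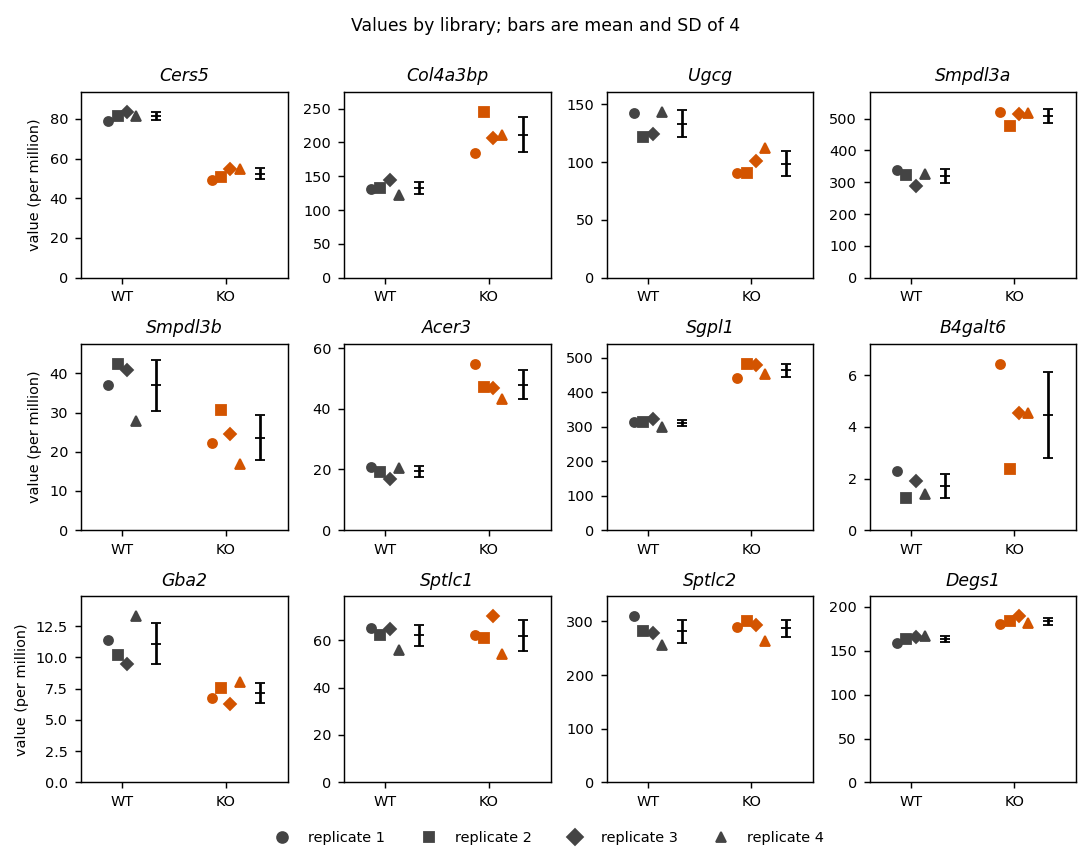
Value of 12 members in each library on the per-million scale (y axes from 0), WT in grey and KO in orange, with a marker shape for each replicate number and the mean and SD at the side of each group. Acer3, Sgpl1, Smpdl3a and Col4a3bp were higher in all 4 KO libraries, Cers5, Ugcg and Gba2 lower, and Sptlc1 and Sptlc2 overlapped.

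Among the breakdown genes 3 of 11 were higher, 4 lower and 4 not called, and the median log2 fold change was 0.11. The called share was 63.6%, against 38.7% of all tested genes. Higher calls were 27.3% against 18.7%, and lower calls 36.4% against 20.0%. Neutral sphingomyelinases return sphingomyelin to ceramide. Smpd2 was 36, 35.2, 33 and 32.2 in WT and 30.8, 27.8, 23.7 and 23 in KO, with no overlap (log2 fold change -0.37, SE 0.0959, limma adjusted p = 0.0126). Exons of Mical1 on the other strand cover 20.3% of its exon bases. Smpd4 was 27.9 ± 1.8 in WT and 24.4 ± 0.601 in KO (log2 fold change -0.18, adjusted p = 0.0477), a call near the threshold. It was lost when any single library but WT replicate 4 was left out (adjusted p = 0.0707 to 0.122), and under median centring, quantile normalisation and voom weights.

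The sphingomyelinase-like pair went in opposite directions. Smpdl3a, a secreted relative of acid sphingomyelinase that cleaves nucleotides, was 339, 324, 289 and 325 in WT and 522, 475, 515 and 517 in KO. The lowest KO library was well above the highest WT library, and the mean ratio was 1.59 (log2 fold change 0.67, SE 0.06, limma adjusted p = 3.17e-05). Smpdl3b, its membrane-anchored relative, was 36.9, 42.4, 40.8 and 27.8 in WT and 22.3, 30.6, 24.6 and 16.9 in KO. KO replicate 2 lay above WT replicate 4, so the groups overlapped, but each KO library was below the WT library with its number (log2 fold change -0.64, adjusted p = 0.0181, and 0.000105 with the replicate block). Without WT replicate 2 the adjusted p of Smpdl3b was 0.0534. Per kilobase of exons the WT level was 155 ± 10.3 for Smpdl3a, the top of the 34 genes, and 18.4 ± 3.26 for Smpdl3b.

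Ceramidases remove the acyl chain. Acer3, the alkaline ceramidase that prefers unsaturated long chains, lies at chr7:98206389-98321208. It had the largest fold change of all members on the log2(value + 1) scale. It was 20.9, 19.3, 17 and 20.4 in WT and 54.8, 47.1, 46.7 and 43.4 in KO. Every KO library was at least double any WT library, and the mean ratio was 2.48 (log2 fold change 1.26, SE 0.0895, limma adjusted p = 8.27e-06). Asah2, the neutral ceramidase, was 12.6, 13, 10.7 and 7.61 in WT and 15.2, 15, 14.9 and 10.6 in KO. Replicate 4 was the lowest library of each group, KO replicate 4 fell inside the WT range, and the gene was not called (adjusted p = 0.148). It was called higher with the replicate block (adjusted p = 0.00996) and with both replicate-4 libraries left out (adjusted p = 0.0294). Acer2, a Golgi ceramidase, was 4.44, 3.53, 13 and 3.58 in WT and 5.07, 3.08, 6.48 and 4.57 in KO and was not called. WT replicate 3 was far above the rest, and replicate 3 was the highest of each group. The summed level of 6 alveolar epithelial markers was also highest in replicate 3, at 139 in WT and 98.1 in KO against 51.1 to 56.4 and 41.5 to 70.5 in the others; its part in the Acer2 values was not tested.

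At the end of the pathway, the lyase that cleaves sphingosine phosphate rose, while Sgpp1, a phosphatase that recycles it, fell by a small amount. Sgpl1, the lyase, was 313, 312, 321 and 299 in WT and 440.4, 481, 477 and 451 in KO, at chr10:61098642-61147703. The groups were far apart against their spread, with a mean ratio of 1.49 (log2 fold change 0.57, SE 0.0485, limma adjusted p = 2.42e-05). Sgpp1, the phosphatase of the endoplasmic reticulum, was 102, 104, 96 and 102 in WT and 94.7, 77.9, 85.1 and 92.9 in KO. The groups did not overlap, but the gap was small (log2 fold change -0.21, adjusted p = 0.0363). The Sgpp1 call was lost without WT replicate 1, 2 or 4 or KO replicate 2 or 3 (adjusted p = 0.0624 to 0.0933). Sphk2, the kinase that makes sphingosine phosphate, was 34.4 ± 2.19 in WT and 37.6 ± 5.83 in KO and was not called (adjusted p = 0.467). KO replicate 4 was its lowest library at 29.1, and without that library Sphk2 was called higher (adjusted p = 0.0313). Exons of Dbp and Rpl18 on the other strand cover 13% and 8.97% of its exon bases. Spns1, a lysosomal carrier of lysophospholipids, was 141 ± 9.02 in WT and 159.6 ± 9.76 in KO, just outside the threshold (adjusted p = 0.054). It was called higher in 7 of 19 alternative fits. Among them were the replicate block (adjusted p = 0.0109), quantile normalisation (adjusted p = 0.028) and median centring (adjusted p = 0.0404). Spns1 was also called when KO replicate 3 (adjusted p = 0.0459) or WT replicate 4 (adjusted p = 0.0219) was left out. The breakdown class held 5 higher calls with the block and 6 with both replicate-4 libraries left out. The called share of all tested genes was 46.7% and 41.0% in these fits, against 38.7% in the main one. Lower calls in the breakdown class were 2 without WT replicate 1, KO replicate 2 or KO replicate 3, and 1 without WT replicate 2. In the order named, lower calls over all tested genes were 2019, 2097, 1972 and 1947, against 2429 with all libraries.

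Of the 7 glycosphingolipid genes 1 was higher, 3 were lower and 3 were not called, and the median log2 fold change was 0.066. The called share was 57.1%, against 38.7% of all tested genes. Higher calls were 14.3% against 18.7%, and lower calls 42.9% against 20.0%. Ugcg adds glucose to ceramide and so opens this branch. It was 143, 122, 125 and 144 in WT and 90.4, 90.7, 101 and 113 in KO, with no overlap. The mean ratio was 0.741 (log2 fold change -0.43, SE 0.0871, limma adjusted p = 0.00357), with the gene at chr4:59189257-59222833. Gba2, which removes that glucose outside the lysosome, was 11.4, 10.2, 9.5 and 13.3 in WT and 6.76, 7.53, 6.28 and 8.06 in KO. All KO libraries were below all WT libraries, at 123 to 398 reads per library (log2 fold change -0.56, SE 0.117, adjusted p = 0.00414). Gltp, which moves glycolipids through the cytosol, was 167 ± 5.16 in WT and 175 ± 10.2 in KO and was not called (95% interval -0.055 to 0.19).

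Lactosylceramide is made by B4galt5 and B4galt6. B4galt5 was 121 ± 11.5 in WT and 137 ± 9.58 in KO and was not called (adjusted p = 0.0984). It was called higher with the replicate block (adjusted p = 0.0372) and when WT replicate 4 was left out (adjusted p = 0.0463). B4galt6 was 2.31, 1.26, 1.89 and 1.42 in WT and 6.44, 2.36, 4.55 and 4.53 in KO, at 34 to 140 reads per library. The groups did not overlap, although KO replicate 2 was only just above WT replicate 1 (log2 fold change 0.97, SE 0.233, limma adjusted p = 0.00872). Per kilobase of exons the KO level of B4galt6, 0.77 ± 0.287, was far below that of B4galt5, 31.8 ± 2.22. St3gal5, which makes the ganglioside GM3 from lactosylceramide, was 2.35, 1.44, 2.8 and 1.75 in WT and 4.97, 2.19, 3.99 and 3.42 in KO. KO replicate 2 lay within the WT range and the gene was not called (log2 fold change 0.58, adjusted p = 0.0558). It was called higher with the replicate block (adjusted p = 0.00696), and when KO replicate 2 (adjusted p = 0.016) or WT replicate 3 (adjusted p = 0.0379) was left out. Median centring (adjusted p = 0.0464) and library quality weights (adjusted p = 0.0264) also called St3gal5 higher.

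The 2 low genes of this class shared their highest and lowest KO library with the markers of interstitial or monocyte-derived macrophages. B4galt6, St3gal5 and the marker sum were each highest in KO replicate 1 and lowest in KO replicate 2. This order in KO was not particular to them, as Sptssa, Smpdl3a, Sgpp1 and B4galnt1 had it too. Of these, Sptssa and Smpdl3a were called higher in KO, and Sgpp1 and B4galnt1 lower. The WT order differed between them. In WT the marker sum, B4galt6 and St3gal5 were lowest in replicate 2, at 38.8, 1.26 and 1.44. Sptssa was lowest in WT replicate 4, and Smpdl3a, Sgpp1 and B4galnt1 in WT replicate 3. Sgms1, Ugcg and Acer2 were also lowest in WT replicate 2, but without that KO order. None of the 7 measured markers was at 0. C1qb, a complement gene of that list, was 10.8, 4.33, 8.59 and 4.55 in WT and 47, 11.8, 20.3 and 25.6 in KO. Without KO replicate 1 the log2 fold change was 0.80 for B4galt6 (adjusted p = 0.0235) and 0.44 for St3gal5 (adjusted p = 0.145). The part of such cells in the values of both genes was not tested.

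**Figure D3:**
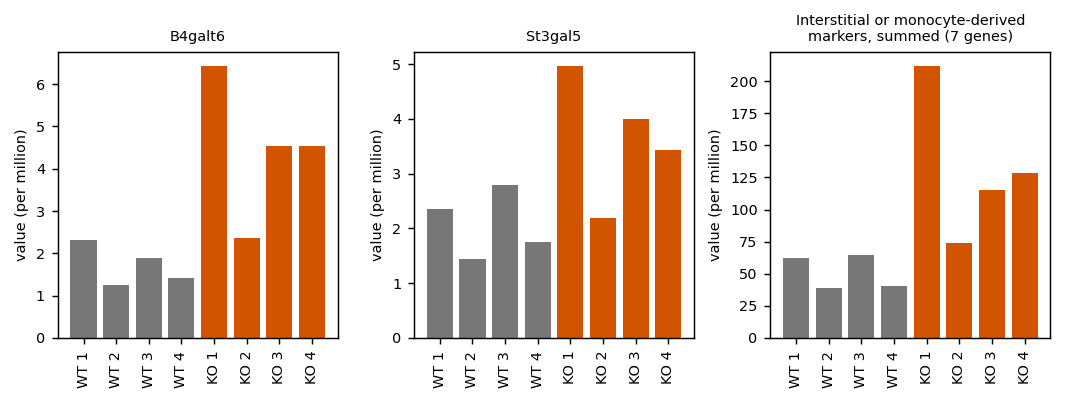
Value of B4galt6, of St3gal5 and of the sum of 7 markers of interstitial or monocyte-derived macrophages in each library, on the per-million scale (bars from 0, WT grey, KO orange). All 3 panels peak in KO replicate 1 and have their lowest KO bar in replicate 2.

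B4galnt1, which adds the next sugar to make GM2-type gangliosides, was 347, 357, 338 and 379.9 in WT and 335, 293, 309.9 and 307 in KO. The groups were separated by a narrow gap (log2 fold change -0.19, SE 0.057, limma adjusted p = 0.0241). This call was lost without WT replicate 2 or 4 or KO replicate 2 or 3 (adjusted p = 0.052 to 0.0646) and with both replicate-4 libraries left out. Exons of Slc26a10 on the other strand cover 20.7% of its exon bases. Per kilobase its WT level of 103 ± 5.24 was far above that of St3gal5, 0.796 ± 0.232. Higher calls in this class were 3 with the replicate block, 2 when replicate 2 of KO or replicate 3 or 4 of WT was left out, and 0 with a minimum value of 8, which removed B4galt6 from the test.

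Ratios between members within a library do not depend on library scale or, when compared between libraries, on gene length. The log2 ratio of Ugcg to Sgms1, the genes of glucosylceramide and of sphingomyelin synthesis from ceramide, ran from 1.34 to 1.66 in the WT libraries and from 0.62 to 1.18 in the KO libraries. The groups did not overlap, and the difference of the means was -0.63. The log2 ratio of Smpdl3a to Smpdl3b ran from 2.82 to 3.55 in the WT libraries and from 3.96 to 4.93 in the KO libraries, again without overlap. That of Ormdl3 to Sptlc1 overlapped, with means of -1.57 ± 0.236 in WT and -1.49 ± 0.269 in KO. Replicate 4 was the highest library of its group in all 3 ratios. These ratios are given as a description, without a test.

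**Figure D4:**
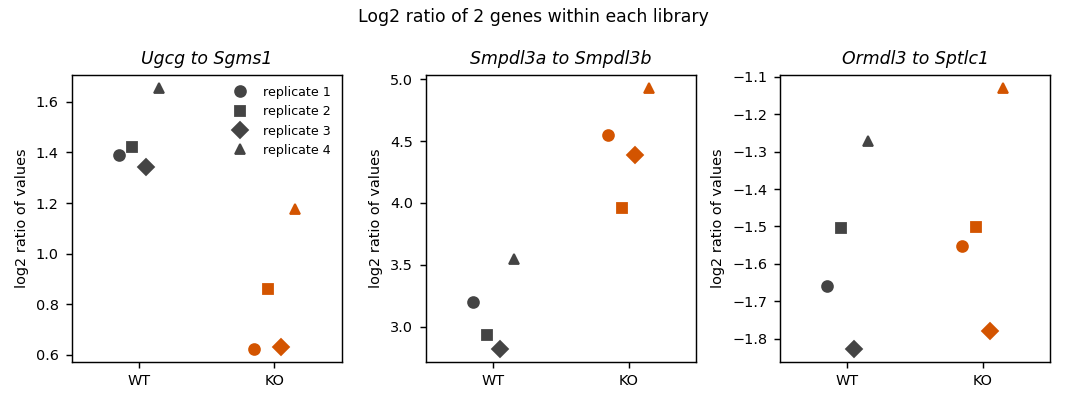
Log2 ratio of the values of 2 genes within each library, WT in grey and KO in orange, with a marker shape for each replicate number. The KO libraries lie below all WT libraries for Ugcg to Sgms1 and above them for Smpdl3a to Smpdl3b, and the groups overlap for Ormdl3 to Sptlc1.

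Same-numbered WT and KO libraries deviated together, and their differences showed how even each change was. For Sgpl1 the 4 differences on the log2(value + 1) scale were 0.49, 0.62, 0.57 and 0.59. For Cers5 they were -0.66, -0.67, -0.6 and -0.56, and for Col4a3bp 0.49, 0.88, 0.51 and 0.78. The first 2 genes thus changed by nearly the same amount in each pair, while Col4a3bp varied more. All 17 called members had 4 of 4 pairs in the direction of their call. For the 16 whose groups did not overlap, any pairing of libraries gives this result, so only Smpdl3b could have differed. The 5 members called with the replicate block only, Sgms1, Asah2, Spns1, B4galt5 and St3gal5, were higher in KO in 4 of 4 pairs, and the block ended 0 of the 17 calls.

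**Figure D5:**
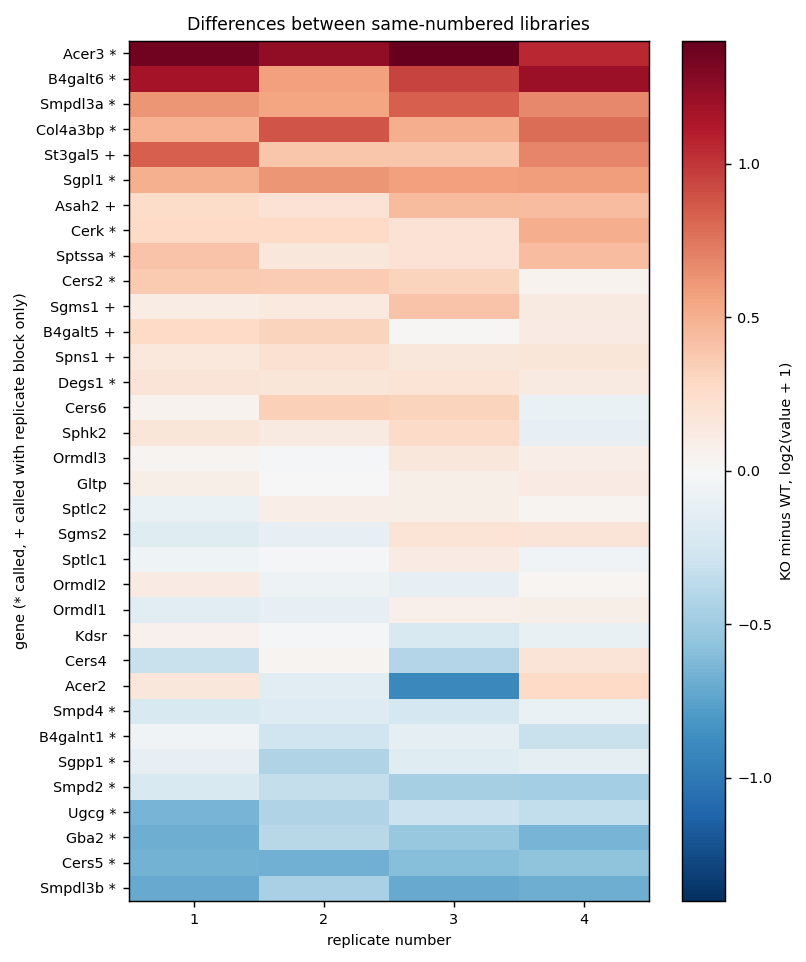
Difference between KO and WT libraries of the same replicate number, on the log2(value + 1) scale, for the 34 members ordered by their mean (red higher and blue lower in KO). Acer3 at the top is between 1.05 and 1.41 in the 4 pairs, and Acer2 has 1 strongly negative pair, replicate 3, at -0.91.

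Among other genes of the pathway, more were called higher than lower. Of 53 such genes on a separate list 37 were measured, of which 16 were higher, 4 lower and 17 not called. The median log2 fold change was 0.16. The called share was 54.1% against 38.7% of all tested genes, with 43.2% higher against 18.7% and 10.8% lower against 20.0%. The largest rise was that of Plpp3, a phosphatase of lipid phosphates at the cell surface, from 5.92 ± 2.46 to 39.8 ± 7.67 (a log2 change of 2.60, limma adjusted p = 2.42e-05). Its relative Plpp2 rose from 6.21 ± 0.534 to 13.3 ± 2.54. Psap, the precursor of the saposins that present sphingolipids to hydrolases, rose from 5187 ± 94.5 to 12194 ± 738 (log2 fold change 1.23), and the galactosidase Gla from 65.6 ± 8.6 to 144 ± 10.3 (log2 fold change 1.13). Hexa, a lysosomal hydrolase of gangliosides, rose by 0.48 on the log2 scale, and acid sphingomyelinase, Smpd1, by 0.40. At least 3 other lysosomal genes on the list were not called: the log2 fold change was 0.043 for Glb1, 0.04 for Gm2a and 0.023 for Galc, which were singled out after their values were seen. Samd8, which makes a ceramide phosphoethanolamine, rose from 133 ± 7.87 to 195 ± 4.89, and S1pr2, a receptor for sphingosine phosphate, from 18.7 ± 1.49 to 32.2 ± 3.76 (log2 fold change 0.75). The exporter Mfsd2b fell from 1.27 ± 0.0716 to 0.59 ± 0.113, close to the lower limit of the table. The other lower calls were Hacd3, Cptp and Aldh3a2, named here after their values were seen. Lower calls on this list numbered 2 without WT replicate 2 or WT replicate 3. Over all tested genes they numbered 1947 and 2121 in these fits, against 2429 with all libraries.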

How the data were processed

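RNA of 8 libraries was measured by sequencing. The submitters' processing notes name build GRCm38, RSEM 1.3.1, cutadapt 1.7.1, CASAVA 1.8.2 and limma. No aligner, annotation release or strand setting is stated in the sources used here. The authors deposited 1 normalised signal value per gene and library. Their spacing is that of whole reads plus 0.5, divided by a scaled library size on a per-million scale (100% of values whole at a tolerance of 0.01). This decoding is inferred and no source states it; depths and reads per library rest on it, and no count test was run.

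The test used log2(value + 1) and kept genes at 1 or more in at least 4 libraries (204 left out), with limma 3.58.1 in R 4.3.3 (moderated variances with a trend, two-sided, Benjamini-Hochberg over all 12163 genes). The steps were tested on simulated data. Positions, exon lengths and overlaps came from GENCODE on GRCm38, matched by gene ID. The members, classes, lists and tests were chosen with earlier results of these data known, so counts of members are descriptions. Every member is named; library values are given for called members of at least 0.5 log2 and for entry, branch and exit steps, with others added after their values were seen, and up to 10 other pathway genes by size of change, of which 1 is not reported here. Same-numbered libraries correlated in their deviations from the group means at 0.363, 0.286, 0.394 and 0.431, against -0.374 to 0.0917 for other pairs. Deviations cancel out within each group, so positive same-numbered values push the other pairs down, and part of this contrast is built in. The pairing rests on these correlations; no label ties a replicate number to a litter, batch or day.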

Additional observations from a re-analysis of the deposited data

Results flagged for a closer look

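In 6 of 68 groups of 4 values (34 members in each genotype) 1 library lay farther from the other 3 than Dixon's 95% limit allows, where chance alone flags about 1 group in 20. In WT replicate 4 this was so for Cers6, at 134 against 91.6 to 95.8 in the other WT libraries, for Sgms2, at 29.2 against 43 to 44.9, and for Smpd4, at 25.2 against 28.5 to 29.2. In WT replicate 3 Acer2 stood at 13 against 3.53 to 4.44. In KO replicate 4 Asah2 stood at 10.6 against 14.9 to 15.2, and in KO replicate 2 Smpdl3a stood at 475 against 515 to 522.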

How the results depend on the processing

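Over 19 alternatives (low-value filter, pseudocount, scaling, variance trend, library weights, voom weights, replicate block, each library left out, both replicate-4 libraries left out), all 17 called members kept their direction and 13 kept their call in each one that tested them. Smpd4, Smpdl3b, Sgpp1 and B4galnt1 lost it in some, and 7 of the 17 others gained one in some. With the replicate block 14 members were higher, 5 in the breakdown and 3 in the glycosphingolipid class, while the share of all tested genes called rose from 38.7% to 46.7%; the block changed no other count of calls by over 1.5 times. With both replicate-4 libraries left out 6 breakdown genes were higher, and 41.0% of all tested genes were called. Higher glycosphingolipid calls were 2 under median centring and library quality weights and 0 with a minimum value of 8. The called share of all tested genes was 38.2%, 46.2% and 44.2% in these fits. Leaving out 1 library gave 4 to 7 lower members and 1 to 3 lower breakdown genes. It gave 1 to 2 higher glycosphingolipid genes and 2 to 4 lower other pathway genes. Over all tested genes these fits called 31.8% to 39.1%, with 1947 to 2447 genes lower against 2429 in the main fit. The cause of these shifts was not tested. At 22 to 140 reads per library, Cers4, B4galt6 and St3gal5 rest on few reads.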
